A study of Mus musculus with 11 samples.

Results

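Transcript levels of FOXO3 knock-out (FOXO3 KO) and wild type (WT) polymorphonuclear neutrophils (PMNs) were compared in the 6 libraries whose table columns carry the numbers 1 to 3 with no leading zero. These are FOXO3 KO 1, 2 and 3 and WT 1, 2 and 3, and they make up 6 of the 11 libraries of the series. The other 5 libraries, 3 FOXO3 KO and 2 WT, carry numbers written with a leading zero and were set aside, so that a difference between the numbering series could not enter the comparison of genotypes. The question was how the transcriptome of PMNs differs without the transcription factor FOXO3.

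The FOXO3 KO mice were homozygous for the knock-out and the WT mice were homozygous WT, both found by genotyping littermates of the C57BL/6 strain. The cell type in which the allele was lost, or a promoter driving its loss, is not given in the sources used here. Both groups were 6 to 8 weeks old and received 2 intraperitoneal injections of 1 mL casein solution on successive days, a sterile irritant that draws PMNs into the peritoneal cavity. Cells were collected 3 h after the second injection and PMNs were separated on a density gradient, so that both groups hold elicited, activated cells with no unstimulated control. The study measured the enriched fraction by flow cytometry for the surface marker Ly6G and reports it as mostly PMNs. The study counts its samples as mice, males and females together, and the labels give neither the sex of a library nor what its number stands for.

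FOXO3 is a forkhead transcription factor that is held in the cytoplasm when the kinases of the PI3K and AKT pathway phosphorylate it. In the nucleus it binds the motif GTAAACA and activates genes of growth arrest, stress resistance, autophagy and cell death, and it restrains inflammatory genes in several immune cells. PMNs are short-lived phagocytes whose granules, chemoattractant receptors and S100 proteins are made in fixed programmes, and casein-elicited preparations also contain macrophages, monocytes, eosinophils and mast cells.

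Levels are given in TPM, the abundance of a transcript corrected for its length and scaled to a fixed library total, so that the number of reads behind a library is unknown from it. Of 54164 genes in the table, 12102 had a mean of at least 1 TPM over the 6 libraries and were tested, 9870 of them protein-coding. S100a8 and S100a9, the calgranulins that fill the PMN cytosol, together held 10.5, 15.5 and 16.6% of the TPM in FOXO3 KO 1, 2 and 3, against 13.5, 22.6 and 22.5% in WT 1, 2 and 3. PMN markers were present in all 6 libraries at differing levels. Csf3r was at 390 to 615 TPM in FOXO3 KO and 414 to 779 TPM in WT. Ly6g was at 29.3, 75.6 and 219 TPM in FOXO3 KO 1, 2 and 3, against 50.4, 180 and 148 TPM in WT 1, 2 and 3. Defining markers of other cells were also present, such as the macrophage gene Adgre1 at 84.2 to 232 TPM in FOXO3 KO and 93.1 to 206 TPM in WT. In bulk libraries, fewer cells of a type and less RNA per cell cannot be told apart.

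One library stood apart in sex-linked genes. FOXO3 KO 3 had 42.9 TPM of Ddx3y, a Y-linked helicase gene, and 4.29 TPM of Xist, the RNA that silences an X chromosome. The other FOXO3 KO libraries had Xist at 84.0 and 57.8 TPM and the WT libraries at 67.5, 37.2 and 42.1 TPM, with Ddx3y at or below 0.264 TPM in these 5. Values without FOXO3 KO 3 are given beside several results that it moved.

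Foxo3 itself was lower in every library labelled FOXO3 KO than in every library labelled WT. Foxo3 was at 1.68, 2.18 and 2.00 TPM in FOXO3 KO 1, 2 and 3, against 10.3, 7.61 and 9.30 TPM in WT 1, 2 and 3. The groups did not overlap, and the means were 1.96 ± 0.254 TPM in FOXO3 KO and 9.05 ± 1.34 TPM in WT (SD, n = 3 each). The log2 fold change was -1.76 (SE 0.198), with an adjusted p of 0.0974 by limma and an exact two-sided permutation p of 0.1, the smallest that 3 against 3 can give. All 3 equal-numbered pairs were lower in FOXO3 KO, by log2 differences of -2.07, -1.44 and -1.78. Of the related factors, Foxo1 was at 0.849 to 1.13 TPM in FOXO3 KO and 0.680 to 1.21 TPM in WT, and Foxo4 at 2.05 to 2.68 TPM in FOXO3 KO and 2.61 to 3.59 TPM in WT. Neither of them, both named after their values were seen, passed an unadjusted p of 0.05 (0.868 and 0.172).

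The threshold applied was an adjusted p (false discovery rate) below 0.05 with an absolute log2 fold change over 0.5. No gene passed it in either direction: 0 of 12102 genes were higher and 0 were lower by limma, 0% each. The smallest adjusted p was 0.0814, and 0.118 when equal numbers were treated as pairs. At an unadjusted p below 0.05 with the same fold change, 406 genes were higher in FOXO3 KO (3.35%) and 114 were lower (0.942%). With the number as a block (equal numbers paired) these counts were 929 (7.68%) and 225 (1.86%), and the genes with an unadjusted p below 0.05 at any fold numbered 3607 with the block and 595 without it. Libraries of equal number deviated together from their group means in all 3 pairs, with correlations across genes of 0.49, 0.16 and 0.39. Whether the numbers mark real pairs cannot be decided from these values, so results with the block rest on that assumption.

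The unadjusted counts depended on single libraries and on scaling. The count of higher genes was 1342 without WT 1, 172 without WT 3, 223 without WT 2 and 265 without FOXO3 KO 1, and the count of lower genes was 188 without WT 1, 56 without WT 3 and 65 without FOXO3 KO 2. Over all genes tested the log2 fold change had a median of 0.21, with 77.2% of genes above 0, while the S100a8 and S100a9 share was lower in FOXO3 KO within each equal-numbered pair. After quantile normalization the median was 0.03 and the split turned to 139 higher and 197 lower genes. After the 20 most abundant genes were left out and the rest rescaled, the median was 0.12 and the split was 259 to 148. Fold changes below are therefore read against 0.21, and a small positive value is not a rise relative to other genes.

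**Figure D1:**
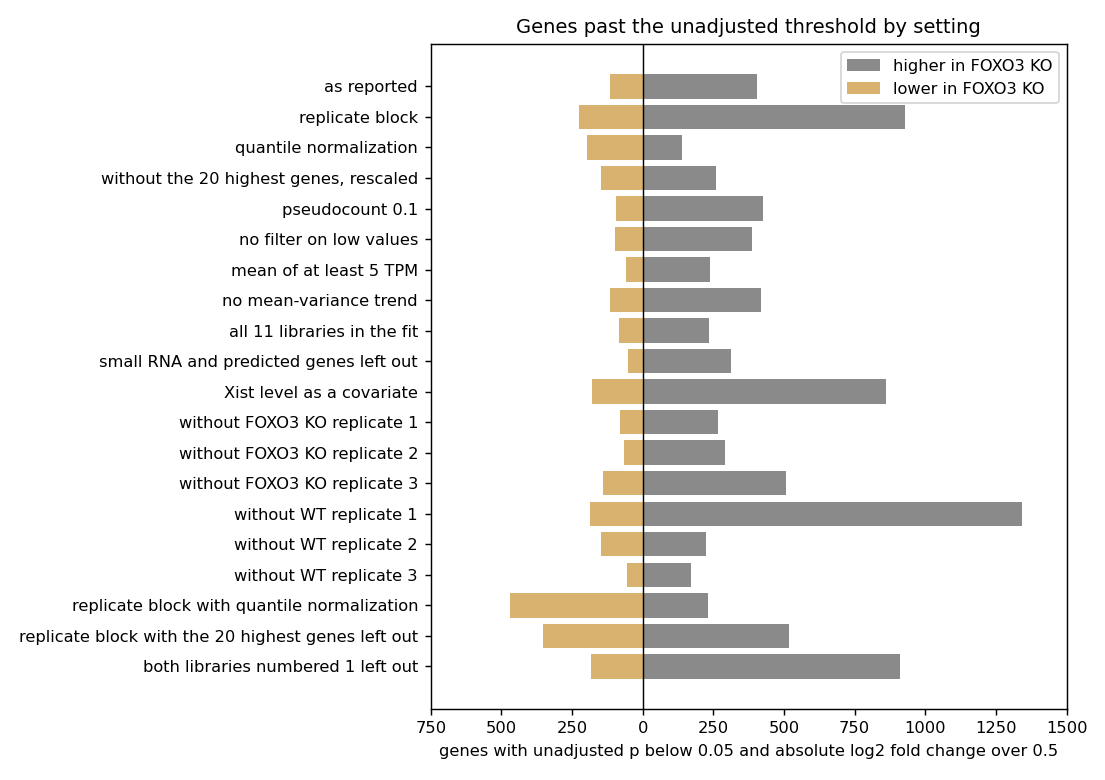
Number of genes with an unadjusted p below 0.05 and an absolute log2 fold change over 0.5 (horizontal axis), higher in FOXO3 KO to the right of 0 and lower in FOXO3 KO to the left, for each setting of the analysis (vertical axis). Higher genes outnumber lower genes as reported (406 against 114) and lower genes outnumber higher ones after quantile normalization (197 against 139).

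The libraries numbered 1 had the lowest scores on the first principal component, which also differed by genotype within each pair, and the second split the genotypes. The first principal component of log2(TPM + 1) held 44.7% of the variance. Its scores were -54.8, -5.20 and 18.2 for FOXO3 KO 1, 2 and 3, and -28.9, 29.6 and 41.2 for WT 1, 2 and 3. Each FOXO3 KO library scored below the WT library of the same number, while the groups overlapped. The second component, with 16.9%, put all 3 FOXO3 KO libraries (5.38, 15.9 and 32.2) above all 3 WT libraries (-27.7, -4.62 and -21.1). Summed over genes, the number accounted for 55.1% of the sum of squares, genotype for 21.2% and the rest for 23.7%. The number has more levels than genotype and takes a larger share even without an effect, so the shares do not rank them.

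**Figure D2:**
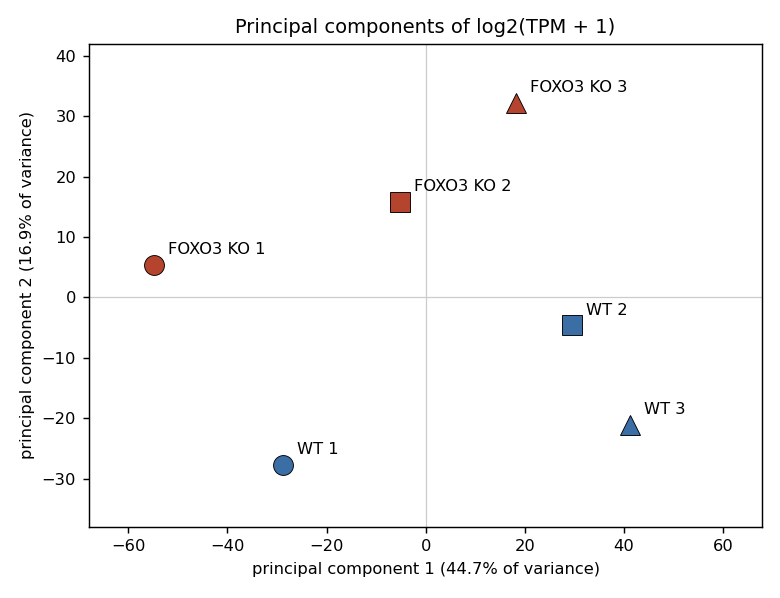
Scores of the 6 libraries on the first (horizontal, 44.7% of the variance) and second (vertical, 16.9%) principal components of log2(TPM + 1), FOXO3 KO in red and WT in blue, with a circle, square or triangle for the number 1, 2 or 3. Both libraries numbered 1 lie at the left and all FOXO3 KO libraries lie above all WT libraries.

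In 1276 genes (10.5%) all FOXO3 KO values lay above all WT values, and in 144 genes (1.19%) all lay below. Of these, 756 genes above and 70 below were protein-coding with a mean of at least 5 TPM, and the genes described next come from the 12 of each direction with the smallest p and the 12 with the largest change among them. None passed the adjusted threshold, so that the values describe the ranking and no gene is called changed. Adjusted p-values of the genes described were 0.708 above and 0.0974 to 0.708 below.

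Among lower protein-coding genes of at least 5 TPM with no overlap, Ypel3 ranked next after Foxo3 by p. It encodes a small nuclear protein linked to growth arrest and senescence. Its levels were 9.21, 6.48 and 8.66 TPM in FOXO3 KO 1, 2 and 3, against 22.1, 30.4 and 35.8 TPM in WT 1, 2 and 3. The lowest WT library was more abundant in Ypel3 than every FOXO3 KO library, and the log2 fold change was -1.72 (SE 0.237, adjusted p = 0.161 by limma). The value stayed between -1.91 and -1.57 when each library was left out in turn.

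The FOXO motif GTAAACA was searched on both strands (TGTTTAC in reverse), and no other motif was searched, in the RefSeq windows of 250 bases before to 50 bases after each gene's start (GRCm38.p6). It was in 959 of 27025 windows, 3.55%. Of the 12 genes with the smallest p that were lower, 9 had a window and 1 of them, Ypel3, held the motif (11.1%), while 0 of 11 windows held it among the 12 that were higher. The match in Ypel3 began 25 bases downstream of the start, at chr7:126776988-126776994 on the + strand. It is shown within the stretch chr7:126776976-126777005 because it is the one match among these genes, with the motif in capitals:
Ypel3: gctggtctcggtGTAAACAagtcgaggcgg
A match is a description of the letters in this window. Over all genes that did not overlap between groups, 3.75% of the windows of those below and 1.80% of those above held the motif, against 2.53% of all tested genes with a window.

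Pink1 and Ccpg1 were also among the 12 lower genes with the smallest p. Pink1 encodes the kinase that marks damaged mitochondria for removal, and was at 3.53, 2.19 and 3.22 TPM in FOXO3 KO, against 7.21, 7.82 and 8.07 TPM in WT, with a log2 fold change of -1.14 (SE 0.207, unadjusted p = 9.14e-04, adjusted p = 0.582 by limma). Ccpg1, a receptor for autophagy of the endoplasmic reticulum, was at 8.93, 9.72 and 16.9 TPM in FOXO3 KO 1, 2 and 3, against 19, 24.6 and 41.4 TPM in WT 1, 2 and 3. Its level differed between numbers in both genotypes, most in the libraries numbered 3, while the differences within pairs were close to each other, -1.01, -1.26 and -1.24. The limma fit gave -1.17 with SE 0.350 without pairing and SE 0.0967 with the number as a block, for unadjusted p-values of 0.0126 and 2.12e-04.

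Il4, the type 2 cytokine made by basophils, eosinophils and mast cells, was at 4.61, 9.93 and 8.87 TPM in FOXO3 KO, against 14.8, 21.5 and 39.9 TPM in WT (log2 fold change -1.53, SE 0.408, adjusted p = 0.708 by limma). Il4 is itself on the list of eosinophil markers, of which 8 of the 9 tested were below 0 with a median of -0.61, which was -1.12 without WT 1, -1.02 without FOXO3 KO 3 and -0.23 without WT 3. Their summed level was 51.8 to 144 TPM in FOXO3 KO and 65.7 to 216 TPM in WT, with Siglecf, a surface lectin of eosinophils, at 3.14, 3.42 and 9.06 TPM in FOXO3 KO and 3.81, 13.4 and 18.1 TPM in WT. The peroxidase gene Epx was at 0 in FOXO3 KO 1 and 2 and at most 0.161 TPM elsewhere. The part of these cells in the Il4 difference was not tested.

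The remaining lower genes with the smallest p were Prnp, the prion protein gene (-0.99), Fgfr1, a fibroblast growth factor receptor (-1.11), Cmah, a sialic acid hydroxylase (-0.94), Ctdsp2, a nuclear phosphatase (-0.79), Pltp, the phospholipid transfer protein (-0.75), Slc17a9, the vesicular ATP transporter (-0.70), and Gm47283 (-0.64). By size of change, Mgst2, a microsomal glutathione transferase (-1.21), Hspa1b, an inducible heat shock protein (-1.17), Ltf, the specific granule protein lactoferrin (-1.01), and Cish, a cytokine signalling inhibitor (-0.94), joined them. All of these stayed below 0 in all alternative settings. Hspa1b and its near-identical copy Hspa1a (-1.13) share reads, so that their counts cannot be fully separated.

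**Figure D3:**
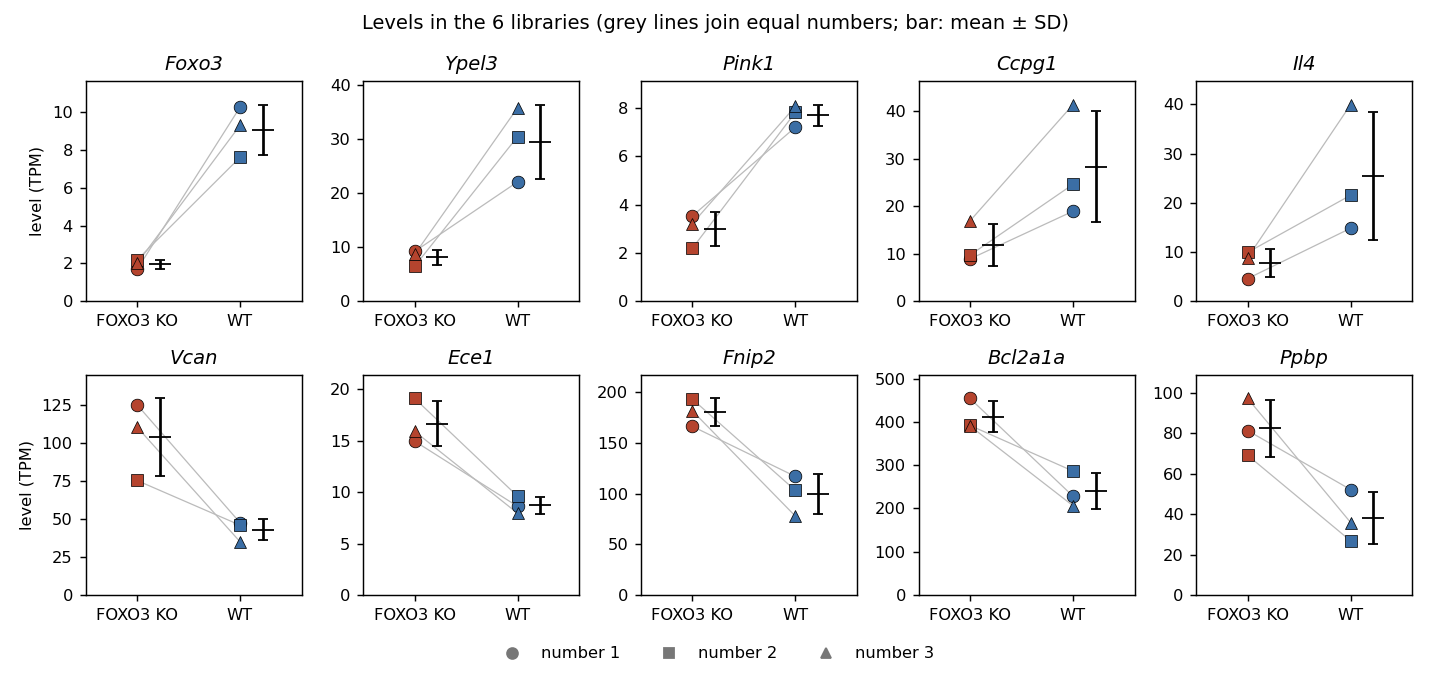
Level in TPM (vertical axes, from 0) of 5 genes that were lower and 5 that were higher in FOXO3 KO, with FOXO3 KO libraries (red) left of WT libraries (blue), symbols for the numbers 1 to 3, grey lines joining equal numbers, and mean ± SD (n = 3 each) in black. In every panel the 2 groups do not overlap, for example 1.68 to 2.18 TPM in FOXO3 KO against 7.61 to 10.3 TPM in WT for Foxo3.

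The higher genes held a protease, a proteoglycan and a chemokine precursor among those with the smallest p. Ece1, the endothelin-converting protease, was at 15, 19.1 and 15.9 TPM in FOXO3 KO and 8.62, 9.60 and 7.94 TPM in WT (log2 fold change 0.86, SE 0.180, adjusted p = 0.708 by limma). Every FOXO3 KO library was above every WT library, and the value was 0.65 after quantile normalization.

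Vcan, the proteoglycan versican that marks inflammatory monocytes, was at 125, 75.5 and 111 TPM in FOXO3 KO, against 47.7, 46.1 and 35.2 TPM in WT (log2 fold change 1.23, SE 0.241, adjusted p = 0.708 by limma). It is itself on the list of monocyte markers and was not alone there. Fn1, fibronectin, was at 298, 378 and 629 TPM in FOXO3 KO and 114, 308 and 182 TPM in WT, and Ccr2, the monocyte chemokine receptor, at 31.1, 28.4 and 61.1 TPM in FOXO3 KO and 14.5, 40.7 and 15.6 TPM in WT, a log2 fold change of 0.82 that was 0.48 without FOXO3 KO 3 and 1.28 without WT 2. Of the 8 monocyte markers tested, 5 were above 0 with a median of 0.79, which was -0.985 in the other 5 libraries. Their summed level overlapped between the groups, at 2530 to 3030 TPM in FOXO3 KO and 2470 to 3160 TPM in WT. Ly6c2, a defining marker, was at 167, 403 and 512 TPM in FOXO3 KO and 208, 462 and 437 TPM in WT. The part of monocytes in the Vcan difference was not tested.

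Ppbp, the platelet chemokine precursor of CXCL7, was at 81.3, 69.1 and 97.2 TPM in FOXO3 KO, against 52.2, 26.8 and 35.9 TPM in WT (1.13, SE 0.272). Erythroid and platelet markers, the list that holds it, were above 0 in 6 of 7 tested genes with a median of 1.31 and a summed level of 396 to 807 TPM in FOXO3 KO and 223 to 450 TPM in WT. The globin gene Hbb-bs was at 86.9, 18.0 and 6.56 TPM in FOXO3 KO and 8.57, 0.741 and 5.87 TPM in WT, so that its largest value was that of FOXO3 KO 1. Without FOXO3 KO 1 the list median was 0.76, and without FOXO3 KO 3 it was 1.86.

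Further genes of the higher ranking had separate roles. Fnip2, a folliculin partner in amino acid sensing at the lysosome, averaged 180 ± 13.5 TPM in FOXO3 KO and 99.3 ± 19.8 TPM in WT (SD, n = 3 each). The log2 fold change was 0.83 for Igf2r, the mannose 6-phosphate receptor, and 1.19 for Atp6v0d2, a proton pump subunit, which stood at 0.77 without FOXO3 KO 3. It was 0.65 for Itga4, the alpha-4 integrin, 0.71 for Lpp, 0.94 for Rnd3, 0.80 for Rapgef2 and 0.99 for the kinase gene Camk1d. Msr1, the macrophage scavenger receptor, was at 458, 315 and 262 TPM in FOXO3 KO 1, 2 and 3, against 233, 168 and 125 TPM in WT 1, 2 and 3, and all 3 pairs differed in the same direction. The predicted genes Gm49450 (2.22) and Gm11032 (1.55) and the gene 2010005H15Rik (1.00) completed the ranking by size.

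The 3 genes of the antiapoptotic BCL2A1 family were all higher with no overlap (10.5% of all genes lay wholly above). Bcl2a1a, whose protein delays PMN death, was at 454, 392 and 391 TPM in FOXO3 KO, against 228, 286 and 206 TPM in WT (0.79, SE 0.184). Bcl2a1d was at 376, 354 and 420 TPM in FOXO3 KO and 271, 281 and 246 TPM in WT (0.53), and Bcl2a1b at 1130, 1139 and 1277 TPM in FOXO3 KO and 790, 940 and 877 TPM in WT (0.44). These copies are nearly identical in sequence and share reads, so that they are not 3 separate observations. In the other 5 libraries their log2 fold changes were below 0, at -0.02 for Bcl2a1a, -0.47 for Bcl2a1d and -0.10 for Bcl2a1b. Across the 18 tested BCL2 family and survival genes the median was 0.06, below that of all genes. Past the unadjusted threshold were 2 upward (3.35% of all genes) and 0 downward (0.942% of all genes).

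Cytokine genes did not move together. Il6 was at 42.7, 34.2 and 26.8 TPM in FOXO3 KO, against 26.4, 7.93 and 17.3 TPM in WT (1.09, SE 0.413), and Vegfa, the angiogenic growth factor, at 66.5, 56.3 and 72.4 TPM in FOXO3 KO, against 44.7, 35.3 and 23.9 TPM in WT (0.93, SE 0.253). Il1b ran the other way, at 1095, 1772 and 1740 TPM in FOXO3 KO and 2013, 2330 and 2375 TPM in WT (-0.57, SE 0.235). Each of these 3 had an unadjusted p below 0.05 (0.0341, 0.00816 and 0.0449) and an adjusted p of 0.708 by limma. Past the unadjusted threshold were 2 of the list upward (3.35% of all genes) and 1 downward (0.942% of all genes). In the other 5 libraries Il6 (-0.40) and Il1b (0.40) had the opposite sign, and Vegfa (0.23) had the same sign. Of 27 cytokine and chemokine genes, 14 were above 0 and 13 below, with a median of 0.05.

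Mir146, the gene of the NF-kB feedback microRNA miR-146a, and Mir27a, chosen after its values were seen, were microRNA genes with values above 0 in all 6 libraries and no overlap between groups. Of 416 microRNA genes tested, 159 had a mature sequence in the RefSeq table. The mature arms are printed 5′ to 3′ with the seed (bases 2 to 8), the part that pairs with target transcripts, in capitals. They are shown because both genes are described by value, and their seeds differ:
mmu-miR-146a-5p: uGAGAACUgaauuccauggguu
mmu-miR-27a-3p: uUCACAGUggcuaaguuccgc
Mir146 was at 161, 69.9 and 68.5 TPM in FOXO3 KO, against 54.5, 42.8 and 19.9 TPM in WT (1.32, SE 0.466, unadjusted p = 0.0251, adjusted p = 0.708 by limma). Mir27a was at 13.1, 16.0 and 14.2 TPM in FOXO3 KO, against 24.9, 28.3 and 34.5 TPM in WT (-0.96). These are short precursor genes in libraries of total RNA, and the authors' mean normalized count over all 11 libraries was 22.5 for Mir146 and 7.98 for Mir27a, so that few reads lie behind each value.

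The 5 genes with the smallest p-values of all were short RNA genes or a pseudogene, most with fewer reads still. In 102 genes one whole group was listed at 0, 45 in FOXO3 KO and 57 in WT, and 75 of them were annotated as microRNA and none as protein-coding. Gm23368 was at 3.85, 4.17 and 3.58 TPM in FOXO3 KO and listed at 0 in all WT libraries, and Mir6904 at 3.17, 3.53 and 3.43 TPM in FOXO3 KO and listed at 0 in all WT libraries. Gm25037 and Gm47937 were listed at 0 in all FOXO3 KO libraries and were at 2.71 to 3.45 TPM and 2.45 to 2.78 TPM in WT. All 4 had an adjusted p of 0.0814 to 0.0974 by limma, and the authors' mean normalized count was 0.213, 0.711, 0.227 and 0.227, on average below 1 read per library.

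FOXO target genes were split around 0. Of 30 genes listed, 26 were tested, 11 above 0 and 15 below, and the median log2 fold change was -0.03, against 0.21 for all genes. The list was 23 of 26 below the all-gene median, and -0.18 in median after quantile normalization against 0.03 for all genes. Sesn1, a stress-induced inhibitor of mTORC1 signalling, was the one member past the unadjusted threshold, and in the upward direction (3.35% of all genes). It was at 6.79, 7.48 and 3.04 TPM in FOXO3 KO, against 2.65, 2.73 and 2.51 TPM in WT (0.83, SE 0.310). FOXO3 KO 3 was close to the WT libraries for Sesn1, and the value was 1.16 without it. Among the FOXO family and the kinases upstream of it, 10 of 17 tested genes were above 0 with a median of 0.04. The one called at the unadjusted threshold was Foxo3, downward (0.942% of all genes).

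The genes that the study measured by qPCR or names as lipases and lipid droplet genes, listed together with Tlr9, were mostly lower. Tlr9, which the study discusses as a receptor, was the only tested gene of the list above 0. The genes of the list were picked by the study on data that include the 6 libraries, so that their direction is not independent evidence. Of 10 tested, 9 were below 0, the median was -0.24, and 2 were past the unadjusted threshold, both downward (0.942% of all genes), namely Ccpg1 and Pla2g7. The list median was -0.51 without FOXO3 KO 1 and -0.08 without FOXO3 KO 3. Pla2g7, the secreted enzyme that inactivates platelet-activating factor, was at 446, 377 and 305 TPM in FOXO3 KO, against 545, 534 and 510 TPM in WT (-0.51, SE 0.187, unadjusted p = 0.0297). P2rx1, an ATP-gated channel, was at 5.32, 6.57 and 10.4 TPM in FOXO3 KO and 5.94, 23.4 and 22.1 TPM in WT (-0.95, SE 0.512), and Mgll, monoacylglycerol lipase, at 3.38, 4.58 and 4.30 TPM in FOXO3 KO and 2.18, 10.6 and 11.9 TPM in WT (-0.62, SE 0.526). For both genes WT 1 lay among or below the FOXO3 KO libraries, and for Mgll the pair numbered 1 had the opposite sign. Without WT 1 the values were -1.54 for P2rx1 and -1.27 for Mgll, and Mgll stood at -0.26 without WT 3 and -0.34 without WT 2.

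Plin2, the lipid droplet coat protein, was at 1843, 1309 and 892 TPM in FOXO3 KO 1, 2 and 3, against 2175, 1453 and 1137 TPM in WT 1, 2 and 3. The libraries numbered 1 had the highest level in both groups, the groups overlapped, and the fold change was -0.25 (SE 0.342). Pnpla2, the adipose triglyceride lipase, stood at -0.24, Cdkn1a, the cell cycle inhibitor p21, at -0.13, and Lipe, hormone-sensitive lipase, at -0.01, and none of the 3 had an unadjusted p below 0.05. Tlr9, a receptor for unmethylated DNA, was at 23.2, 11.3 and 6.87 TPM in FOXO3 KO 1, 2 and 3, against 11.5, 5.45 and 4.92 TPM in WT 1, 2 and 3 (0.76, SE 0.469). Each of its pairs was higher in FOXO3 KO, and the unadjusted p was 0.148 without pairing and 0.00617 with the number as a block. Mcam was below 1 TPM and was not tested.

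In the wider list of lipolysis and lipid droplet genes, 11 of 20 tested were above 0 and 9 below, with a median of 0.12. Hsd17b11, a lipid droplet dehydrogenase, was the one member past the unadjusted threshold, downward (0.942% of all genes). It was at 16.7, 16.9 and 24.9 TPM in FOXO3 KO and 26.3, 29.4 and 40.9 TPM in WT (-0.69, SE 0.246). Dgat1, which makes triacylglycerol, was at 75, 120 and 240 TPM in FOXO3 KO 1, 2 and 3 and 166, 194 and 331 TPM in WT 1, 2 and 3. The differences between numbers were larger than that between genotypes for Dgat1 (-0.76, SE 0.454 without pairing, unadjusted p = 0.137, and 0.00689 with the block). Of 19 fatty acid uptake and oxidation genes, 15 were above 0 with a median of 0.12 and 0 were past the unadjusted threshold. In 2 of them all FOXO3 KO values lay above all WT values (10.5% of all genes). In 1 all lay below (1.19% of all genes), namely Slc25a20, the carnitine carrier, at 31.2, 29 and 33.6 TPM in FOXO3 KO, against 40.8, 41.1 and 49.5 TPM in WT. All 16 cholesterol synthesis and uptake genes tested were above 0 with a median of 0.30, none past the unadjusted threshold without pairing and 4 with the block (7.68% of all genes). That median was 0.07 without WT 3, 0.64 without FOXO3 KO 3 and 0.00 within the pair numbered 1.

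Interferon-stimulated genes lay mostly below 0. Of 24 tested, 22 were below 0, all 24 were below the median of all genes, and the list median was -0.57. Oasl2, an interferon-induced antiviral gene, was at 8.34, 67.4 and 34.1 TPM in FOXO3 KO 1, 2 and 3, against 23.5, 127 and 88.2 TPM in WT 1, 2 and 3, and Cxcl10, an interferon-induced chemokine, at 5.92, 20.8 and 21.5 TPM in FOXO3 KO and 13.7, 71.9 and 28.7 TPM in WT. The level varied more between numbers than between genotypes, and the summed level of the list was lowest in the libraries numbered 1 of both groups. The groups overlapped in every gene of the list. Without pairing 0 of the 24 passed the unadjusted limma threshold in either direction.

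Within pairs most interferon-stimulated genes were lower in FOXO3 KO. All 3 pairs were below 0 in 20 of 24 genes (6.64% of all genes) and the list medians of the pairs were -0.46, -0.57 and -0.69. With the number as a block in limma, 14 of 24 genes had an unadjusted p below 0.05 with a log2 fold change under -0.5 (1.86% of all genes). Oasl2, Oas1a and Usp18 were among them, and none had an adjusted p below 0.05. For Oasl2 the log2 fold change was -1.21, with an SE of 0.855 without pairing and an SE of 0.131 with it. The median was -1.04 without WT 1 and -0.13 without FOXO3 KO 1, and -0.60 with both libraries numbered 1 left out. After quantile normalization it was -0.72, and in the other 5 libraries the median of the same list was -0.78. Ifit3 and Ifit3b are close copies that share reads. Guanylate-binding proteins and their relatives were below 0 in 7 of 10 tested genes with a median of -0.20, and all 10 were below the all-gene median. That median was 0.04 without WT 2, and 0.29 in the other 5 libraries.

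**Figure D4:**
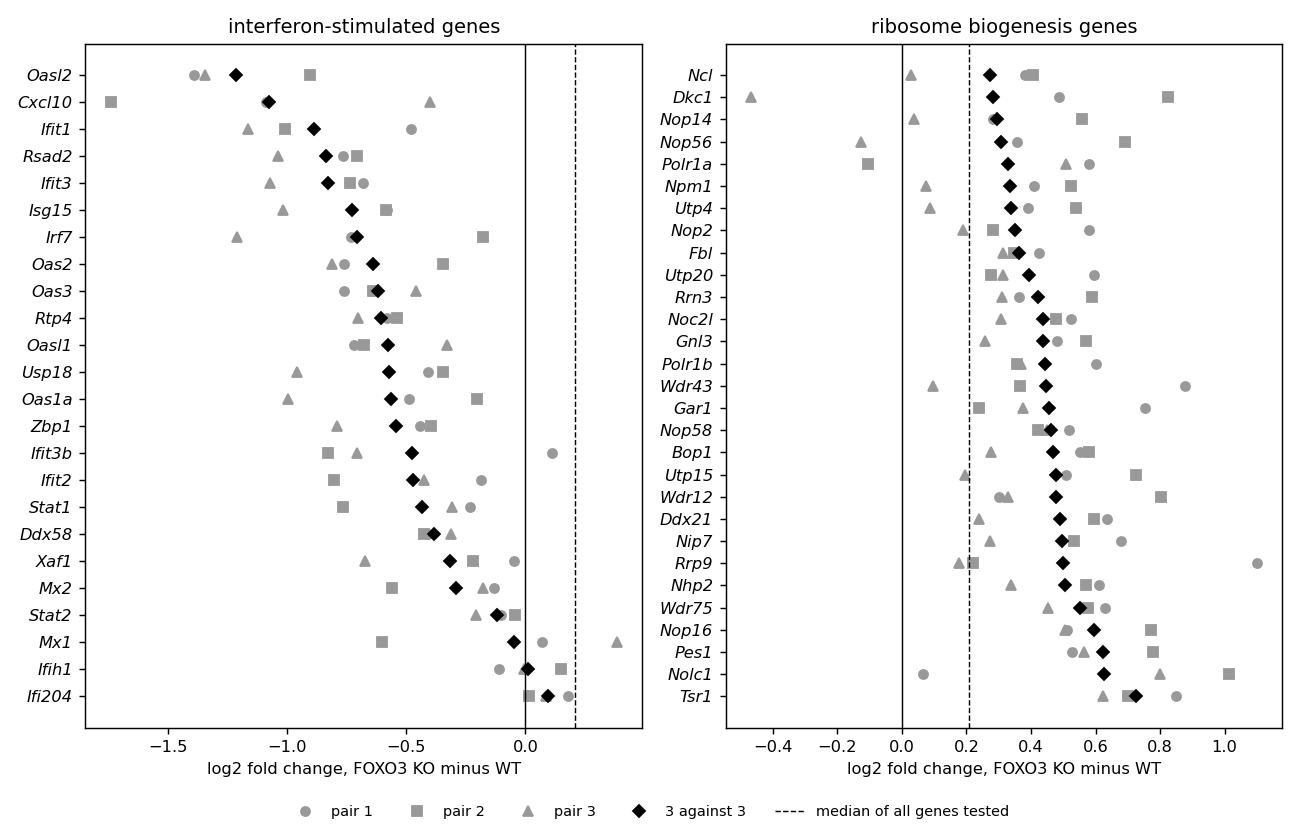
Log2 fold change, FOXO3 KO minus WT on log2(TPM + 1) (horizontal axes), of each tested interferon-stimulated gene (left, 24 genes) and ribosome biogenesis gene (right, 29 genes), with grey symbols for the differences within pairs 1, 2 and 3, black diamonds for 3 against 3, and a dashed line at the median of all genes tested (0.21). The left list lies mostly below 0 in each pair and the right list above 0.

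Ribosome biogenesis genes lay on the other side of 0. All 29 tested genes were above 0 and above the all-gene median, with a list median of 0.45, and 26 of the 29 were above 0 in all 3 pairs (48.5% of all genes). Tsr1, a maturation factor of the small ribosomal subunit, was at 16.6, 11.8 and 10.7 TPM in FOXO3 KO, against 8.78, 6.86 and 6.57 TPM in WT (0.73, SE 0.226), and was the one of 29 past the unadjusted threshold (3.35% of all genes), with 6 of 29 past it with the block (7.68% of all genes). Nolc1 (0.63), Ddx21 (0.49) and Polr1b (0.44), which serve ribosomal RNA synthesis and processing, had smaller differences. The list median was 0.26 after quantile normalization, when that of all genes was 0.03, and it was 0.18 without FOXO3 KO 1 and 0.63 without FOXO3 KO 3.

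The related housekeeping lists were also above 0, but close to all genes. All 28 nuclear oxidative phosphorylation genes were above 0 with a median of 0.26, 27 of them in all 3 pairs (48.5% of all genes). Of 32 cytosolic ribosomal protein genes, 30 were above 0 with a median of 0.27. The protein genes of mitochondrial DNA were above 0 in 12 of 13 with a median of 0.23, among them mt-Nd5, a complex I subunit, at 456, 434 and 450 TPM in FOXO3 KO and 371, 264 and 320 TPM in WT (0.50, SE 0.179). Atp5a1 (0.42) and Rpl27 (0.39) led the other 2 lists by p. Relative to the median of all genes these list medians were 0.05, 0.06 and 0.02 higher. In the other 5 libraries the medians were -0.12 for the nuclear list, 0.34 for the ribosomal protein list and -0.13 for the mitochondrial DNA list.

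**Figure D5:**
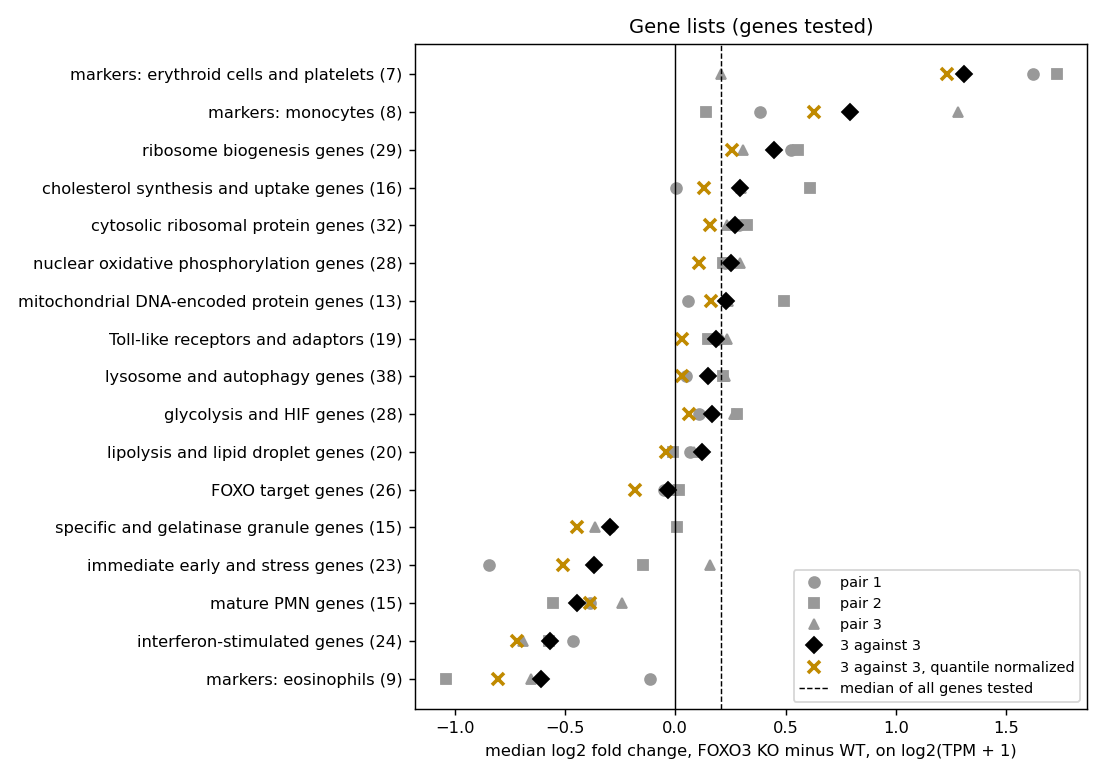
Median log2 fold change, FOXO3 KO minus WT on log2(TPM + 1) (horizontal axis), of 17 gene lists (vertical axis, number of genes tested in brackets), within pairs 1, 2 and 3 (grey), for 3 against 3 (black diamonds) and after quantile normalization (crosses), with a dashed line at the median of all genes (0.21). Interferon-stimulated genes, eosinophil markers and mature PMN genes lie furthest below 0.

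Mature PMN genes were below 0 in 14 of 15, with a list median of -0.45 and summed levels of 105000 to 173000 TPM in FOXO3 KO and 137000 to 232000 TPM in WT. Retnlg, a resistin-like secreted protein of mature PMNs, was at 2307, 4603 and 9780 TPM in FOXO3 KO 1, 2 and 3, against 5584, 10882 and 12573 TPM in WT 1, 2 and 3 (-0.96, SE 0.556). Cxcr2, the main PMN chemokine receptor, was at 49.2, 110 and 145 TPM in FOXO3 KO and 81.8, 255 and 200 TPM in WT (-0.79, SE 0.532). For both genes each FOXO3 KO library was below the WT library of the same number while the groups overlapped, and 0 of the 15 genes passed the unadjusted threshold without pairing, against 4 downward with the block (1.86% of all genes). The median was -0.14 without FOXO3 KO 1 and -0.70 without WT 1. S100a8 (-0.46) and S100a9 hold the same rank in every library, so quantile normalization sets their difference to 0.

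Granule genes were split. Of 15 specific and gelatinase granule genes, 10 were below 0 and 5 above, with a median of -0.29, which was -0.09 without FOXO3 KO 1, -0.51 without FOXO3 KO 2, -0.48 without FOXO3 KO 3 and 0.04 in the other 5 libraries. Ltf was at 180, 492 and 387 TPM in FOXO3 KO, against 569, 539 and 918 TPM in WT. Arg1, an arginine-degrading enzyme whose gene is on this list, had the opposite direction at 4668, 2924 and 1851 TPM in FOXO3 KO 1, 2 and 3 and 2359, 1786 and 1323 TPM in WT 1, 2 and 3 (0.73, SE 0.376). In the other 5 libraries Arg1 stood at -1.46. The cells that its transcripts came from were not tested. Only 2 of 8 azurophil granule genes reached 1 TPM, both below 0, and Serpinb1a, an inhibitor of neutrophil elastase, was at 21.2, 24.1 and 24.5 TPM in FOXO3 KO, against 43.9, 25.1 and 56.9 TPM in WT (-0.75, SE 0.299). Cd177, a surface marker of the specific granule, stood at -0.76 (SE 0.425).

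Immediate early and stress genes rested on one library. Of 23 tested, 19 were below 0 with a median of -0.37, but the pairs gave -0.85, -0.15 and 0.16, and without FOXO3 KO 1 the median was 0.01. Jund, an AP-1 subunit, did not overlap at 83.6, 102 and 102 TPM in FOXO3 KO, against 138, 137 and 119 TPM in WT (-0.45, SE 0.166). This gene, Hspa1a and Hspa1b had unadjusted p-values of 0.0296, 0.0364 and 0.0293.

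Receptors for microbial products were near the median of all genes as a list, 16 of 19 above 0 with a median of 0.18. The 2 members past the unadjusted threshold, both upward (3.35% of all genes), were Tlr7 and Tlr6. Tlr7, a sensor of single-stranded RNA, was at 29.3, 27.3 and 32.1 TPM in FOXO3 KO, against 23.9, 16.6 and 13.5 TPM in WT (0.72, SE 0.233). Tlr6, a partner of TLR2, was at 71.0, 59.3 and 77.2 TPM in FOXO3 KO, against 53.9, 44.6 and 44.7 TPM in WT (0.52, SE 0.179). Neither overlapped between the groups (10.5% of all genes lay wholly above). In the other 5 libraries Tlr7 stood at -0.22 and Tlr6 at 0.14. Glycolysis and HIF genes were above 0 in 22 of 28 with a median of 0.16, and Pdk1, which turns pyruvate away from mitochondria, was at 38.9, 32.0 and 23.8 TPM in FOXO3 KO, against 24.5, 19.7 and 11.6 TPM in WT (0.76, SE 0.311), next to Hif1a at 0.40. Among the 38 lysosome and autophagy genes tested, 31 were above 0 with a median of 0.15. Rragd, a Rag GTPase of lysosomal amino acid sensing (0.69, SE 0.260), was past the unadjusted threshold upward (3.35% of all genes). Ccpg1 was past it downward (0.942% of all genes). Cdk6, a cell cycle kinase, stood at 0.54 (SE 0.174), while the 32 cell cycle genes had a median of 0.03.

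The other lists stayed close to 0, below the median of all genes. Medians were 0.01 for 14 chemoattractant receptors, 0.12 for 14 adhesion molecules, 0.06 for 16 eicosanoid and platelet-activating factor genes, 0.12 for 7 NADPH oxidase subunits, 0.12 for 15 NF-kB feedback genes, 0.14 for 11 inflammasome genes, 0.07 for 19 antioxidant genes and 0.18 for 24 unfolded protein response genes. Together these 8 lists held few genes past the unadjusted threshold, namely 2 upward (Itga4 and Mir146) and 2 downward (Pla2g7 and Il1b). Over all genes the shares were 3.35% upward and 0.942% downward. Marker lists of other cells had medians of 0.06 for macrophages (summed level 2740 to 4340 TPM in FOXO3 KO and 2930 to 3740 TPM in WT), -0.12 for mast cells and basophils, -0.30 for B cells, 0.04 for T cells, -0.11 for NK cells, -0.26 for dendritic cells and 0.00 for mesothelial, stromal and endothelial cells. Without FOXO3 KO 3 these medians were -0.16 for chemoattractant receptors, -0.02 for inflammasome genes, 0.40 for antioxidant genes, -0.21 for macrophages, -0.45 for mast cells and basophils and -0.52 for dendritic cells. Leaving out another single library also turned the sign for chemoattractant receptors, antioxidant genes, macrophages, mast cells and basophils, and dendritic cells. The same held for the eicosanoid list and for B cells, T cells, NK cells and the mesothelial, stromal and endothelial list. The B cell median was 0.13 without FOXO3 KO 2 and 0.19 without WT 3. The defining macrophage markers did not move together. Csf1r did not overlap, at 125 to 138 TPM in FOXO3 KO and 77.0 to 110 TPM in WT. The ranges in FOXO3 KO and WT were 73.9 to 81.0 and 79.3 to 121 TPM for C1qa, 161 to 201 and 189 to 290 TPM for C1qb, and 74.3 to 88.5 and 86.6 to 137 TPM for C1qc. Intestinal epithelium markers were near 0, with 1 of 16 reaching 1 TPM and summed levels of 2.12 to 4.26 TPM in FOXO3 KO and 2.53 to 3.79 TPM in WT.

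The same contrast was then read in the other 5 libraries. There, Ddx3y was at 0, 0.0412 and 18 TPM in the FOXO3 KO libraries and 20.2 and 18.3 TPM in the WT libraries, so that sex-linked genes moved with genotype, and their part in these values was not tested. Foxo3 was at 0.844 to 4.27 TPM in the 3 FOXO3 KO and 7.63 to 11.7 TPM in the 2 WT libraries there, with a log2 fold change of -1.55, against -1.76 in the libraries numbered 1 to 3. Of the 12 genes with the smallest p that were higher here, 4 were above 0 and 8 below in the other libraries, where their median was -0.11 and 0 had an unadjusted p below 0.05. Of the 11 lower genes besides Foxo3, 8 were below 0 and 3 above with a median of -0.21, again with 0 at an unadjusted p below 0.05. Of the genes higher here, Vcan (-1.40 there), Ppbp (-1.49) and Msr1 (-1.39) had the opposite sign, and Fnip2 (0.21) and Itga4 (0.24) had the same sign. Of the genes lower here, Hspa1b (1.38 there), Slc17a9 (0.70), Cmah (0.35) and Prnp (0.12) had the opposite sign, and Ypel3 (-0.64), Ctdsp2 (-0.59), Ccpg1 (-0.59) and Il4 (-0.87) had the same sign. P2rx1 stood at -1.05, Mgll at -1.10 and Tlr9 at 0.78 there, against -0.95, -0.62 and 0.76 in the libraries numbered 1 to 3.

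The difference between the 2 numbering series was tested in a single limma fit of all 11 libraries over 12195 genes. No gene had an adjusted p below 0.05 for a different genotype effect, the smallest being 0.0571, and at an unadjusted p below 0.05 there were 154 genes with a higher and 100 with a lower effect in the libraries numbered 1 to 3. For Foxo3 the difference was -0.21 (SE 0.550, unadjusted p = 0.712). The genes of the ranking above were chosen on one side of this difference, so their own differences are not tested.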

How the data were processed

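Total RNA was sequenced as paired-end reads. The authors deposited 1 table with TPM values per library, made before deposit and relative to transcript length and library total. They also deposited a signal column, the mean normalized count over all 11 libraries (total 25885875), and columns of their own fold changes, standard errors and p-values, which were not used. Tools named in the submitters' processing notes, with no role given, are kallisto 0.46.0, STAR 2.6.1d and DESeq2, and the builds are mm10 and hg38. Strand use, filters and annotation are not given in the sources used here. Depth per library is unknown because TPM keeps none. Labels list separate samples, and p-values measure the spread between them.

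Columns were matched to labels by title, and classes and positions came from GENCODE M21 by symbol (53628 matched). Genes averaging 1 TPM or more over the 6 libraries were kept, and log2(TPM + 1) was fitted on genotype in limma 3.58.1 (R 4.3.3) with a mean-variance trend, two-sided, with Benjamini-Hochberg adjustment. The model was tested on simulated data. The blocked fit assumes that equal numbers are pairs, and it is given where it changes a count. Equal-numbered libraries had correlations of 0.49, 0.16 and 0.39, against -0.40 to 0.089 between different numbers. These values cannot decide whether the pairs are real. Deviations from a shared group mean depend on each other, so high values for equal numbers lower the others, and 0.16 lies close to 0.089. The meaning of the numbers is unknown, so blocked p-values hold only under this assumption. The members and lists were chosen with earlier results of these data known. Genes named are Foxo3, the 12 of each direction with the smallest p and the largest change among non-overlapping protein-coding genes of at least 5 TPM, the study's own genes, up to 4 with the smallest p in each list, and defining markers. Alternatives covered pairing, scaling, pseudocount, filters, variance prior, weights, gene classes, Xist level and libraries left out. A few genes that this rule names are not reported here.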

Additional observations from a re-analysis of the deposited data

How the results depend on the processing

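No gene passed an adjusted p of 0.05 in the reported fit, with the replicate block or with a library left out. Calls appeared without the mean-variance trend (2 higher, 2 lower, all short RNA genes or pseudogenes), with all 11 libraries in the fit (2 and 3), and with sample weights (1215 and 278, Foxo3 at -1.55 with an adjusted p of 0.00484), where the weight estimation did not converge and FOXO3 KO 2 received a weight of 37.2 against 0.237 to 1.49 for the others. Unadjusted counts, higher then lower, were 406 and 114 as reported, 929 and 225 with the replicate block, 139 and 197 after quantile normalization, 259 and 148 without the 20 most abundant genes, 238 and 59 at a mean of at least 5 TPM, 1876 and 524 with sample weights, 233 and 85 with all 11 libraries, 313 and 52 with only protein-coding genes that carry no Gm or Rik symbol, 862 and 178 with the Xist level as a covariate, and 92 and 61 at an absolute log2 fold change over 1. Leaving out single libraries gave 172 to 1342 higher and 56 to 188 lower genes.

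Chosen after seeing the data were the block with quantile normalization (232 and 470), the block without the 20 most abundant genes (517 and 353), and leaving out both libraries numbered 1 (911 and 183). The difference between numbering series had 1 call at a mean of at least 5 TPM and 0 to 3 calls when single libraries were left out, 3 without FOXO3 KO 3 and 1 without WT 1. Foxo3 ranged from -1.87 to -1.68 when libraries were left out. Small fold changes changed sign when a library was left out, with ranges of -0.23 to 0.044 for Cdkn1a, -0.55 to 0.050 for Pnpla2 and -0.50 to 0.020 for Plin2, positive without WT 1 and for Plin2 also without FOXO3 KO 3, and of -0.23 to 0.22 for Lipe, positive without FOXO3 KO 2, FOXO3 KO 3 or WT 2. The causes were not tested.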
